A study of Mus musculus with 6 samples.

Results

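The respiratory chain genes studied here are the nuclear protein-coding genes whose products build the oxidative phosphorylation machinery of mitochondria. Members were chosen by symbol: all genes starting with Nduf, Uqcr or Atp5 or with Cox4 to Cox8, together with Sdha, Sdhb, Sdhc, Sdhd, Cyc1 and Cycs. This gave 98 of the 21887 nuclear protein-coding genes of the RefSeq annotation. They comprise 41 Nduf genes counted by symbol as complex I and 8 Ndufaf genes of complex I assembly factors. A further 4 are genes of complex II, 9 of complex III, 18 of complex IV and 17 of complex V. The last is Cycs, the gene of the mobile carrier cytochrome c.

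Occupancy by COUP-TFII was measured by chromatin immunoprecipitation and sequencing (ChIP-seq) in mesonephroi of CD-1 mouse embryos at E14.5, a stage of fetal life, with chromatin taken from pools of mesonephroi. The samples are 2 COUP-TFII ChIP libraries from XX mesonephroi, 2 COUP-TFII ChIP libraries from XY mesonephroi and 2 libraries of input chromatin pooled from both sexes. All groups share strain, stage and tissue, and no genetic change or treatment is labelled. One protocol field of the labels names another factor and fetal ovaries, whereas titles, tissue and antibody name COUP-TFII and mesonephroi, and the names in the titles were used.

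The values are the authors' lists of peaks, with 11175 XX peaks and 9846 XY peaks, all 300 bp wide and given as mm10 positions without height or score. Each sex has a single list over its 2 libraries, so the lists give no spread between replicates, and the sexes were compared by counts without a test. Read depth behind the lists is unknown. Peak lists carry no expression values, so the tissue label could not be checked against marker genes. Each peak was given to 1 protein-coding gene, the one whose body lay closest to the peak centre, up to 100 kb away. A peak was counted as shared when an XX and an XY peak had at least 1 bp in common, which held for 7483 XX peaks.

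Complexes I and II pass electrons from NADH and succinate to ubiquinone, complex III passes them on to cytochrome c, and complex IV hands them to oxygen. Complexes I, III and IV pump protons across the inner mitochondrial membrane, and complex V, the ATP synthase, uses the return flow to make ATP. Most subunits are encoded in the nucleus and their genes are active in nearly all cells, while a few isoforms are restricted to muscle, lung or testis. COUP-TFII, the product of Nr2f2, is an orphan nuclear receptor that binds repeats of the motif AGGTCA and is abundant in mesenchyme. In the adult mouse heart, forced expression of COUP-TFII is known to lower expression of respiratory chain genes.

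The promoters below show where on the DNA the shared peaks lay. For each complex, the member with a shared peak was taken whose RefSeq promoter window (GRCm38.p6, 250 bases before to 50 bases after a transcription start, in the direction of the gene) had most bases inside both an XX and an XY peak. Capitals mark the bases inside both peaks.
Ndufb2: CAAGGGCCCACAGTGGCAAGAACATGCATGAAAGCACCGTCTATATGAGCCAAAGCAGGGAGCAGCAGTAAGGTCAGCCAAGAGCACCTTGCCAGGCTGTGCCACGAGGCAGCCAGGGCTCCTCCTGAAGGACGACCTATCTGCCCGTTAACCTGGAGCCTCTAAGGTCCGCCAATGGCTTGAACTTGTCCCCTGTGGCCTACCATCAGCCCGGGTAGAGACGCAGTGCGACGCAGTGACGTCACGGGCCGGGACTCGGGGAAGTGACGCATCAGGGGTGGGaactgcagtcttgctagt
Ndufaf4: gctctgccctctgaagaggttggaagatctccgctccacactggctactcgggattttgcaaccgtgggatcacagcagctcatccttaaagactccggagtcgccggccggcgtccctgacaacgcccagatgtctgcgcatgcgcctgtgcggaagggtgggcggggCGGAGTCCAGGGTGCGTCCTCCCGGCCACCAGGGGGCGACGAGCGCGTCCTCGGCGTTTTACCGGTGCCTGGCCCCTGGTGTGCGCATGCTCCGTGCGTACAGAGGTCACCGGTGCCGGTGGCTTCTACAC
Sdhb: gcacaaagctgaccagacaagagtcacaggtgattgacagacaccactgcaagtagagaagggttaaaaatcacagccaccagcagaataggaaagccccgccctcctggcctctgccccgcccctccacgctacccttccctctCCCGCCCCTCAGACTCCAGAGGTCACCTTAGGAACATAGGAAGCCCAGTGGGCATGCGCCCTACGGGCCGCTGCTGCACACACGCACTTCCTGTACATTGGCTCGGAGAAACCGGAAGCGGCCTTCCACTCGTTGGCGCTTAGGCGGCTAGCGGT
Uqcr10: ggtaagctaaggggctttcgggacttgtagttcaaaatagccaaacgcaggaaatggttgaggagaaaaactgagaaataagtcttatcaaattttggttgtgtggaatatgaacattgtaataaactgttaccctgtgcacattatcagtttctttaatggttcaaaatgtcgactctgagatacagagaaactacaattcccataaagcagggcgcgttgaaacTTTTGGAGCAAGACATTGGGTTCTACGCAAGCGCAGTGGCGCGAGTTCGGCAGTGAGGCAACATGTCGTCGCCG
Cycs: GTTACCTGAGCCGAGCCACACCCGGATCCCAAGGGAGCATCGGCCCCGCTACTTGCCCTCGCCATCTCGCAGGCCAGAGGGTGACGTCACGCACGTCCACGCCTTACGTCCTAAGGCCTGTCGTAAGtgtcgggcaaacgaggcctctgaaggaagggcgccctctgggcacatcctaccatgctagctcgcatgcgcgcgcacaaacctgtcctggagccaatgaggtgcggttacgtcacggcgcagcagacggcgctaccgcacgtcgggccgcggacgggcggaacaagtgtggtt
Cox5a: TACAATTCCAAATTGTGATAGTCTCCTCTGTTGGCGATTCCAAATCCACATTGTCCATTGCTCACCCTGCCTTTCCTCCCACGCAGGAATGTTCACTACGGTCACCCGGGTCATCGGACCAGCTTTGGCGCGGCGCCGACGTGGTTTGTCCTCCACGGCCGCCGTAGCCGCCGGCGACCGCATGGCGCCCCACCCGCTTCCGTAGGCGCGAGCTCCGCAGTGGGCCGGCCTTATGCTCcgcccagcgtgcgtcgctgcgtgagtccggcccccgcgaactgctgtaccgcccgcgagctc
Atp5k: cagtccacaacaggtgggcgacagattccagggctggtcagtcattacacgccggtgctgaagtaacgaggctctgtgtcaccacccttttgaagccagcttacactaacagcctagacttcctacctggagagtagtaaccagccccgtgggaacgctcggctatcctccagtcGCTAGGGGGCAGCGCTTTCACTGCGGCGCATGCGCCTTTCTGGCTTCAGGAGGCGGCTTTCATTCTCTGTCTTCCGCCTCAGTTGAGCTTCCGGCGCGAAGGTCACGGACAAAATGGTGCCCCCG

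These windows lie at chr6:39592315-39592614 (Ndufb2, plus strand), chr4:24897833-24898132 (Ndufaf4, plus), chr4:140961021-140961320 (Sdhb, plus), chr11:4704295-4704594 (Uqcr10, minus), chr6:50566520-50566819 (Cycs, minus), chr9:57520982-57521281 (Cox5a, plus) and chr5:108434350-108434649 (Atp5k, minus). Both peaks covered 282 of the 300 bases at Ndufb2, a supernumerary subunit gene of complex I, and 238 at Cox5a, a structural subunit gene of complex IV. They covered 155 bases at Sdhb, which encodes the iron-sulfur subunit of complex II, 131 at the assembly factor gene Ndufaf4, 127 at Cycs, 125 at Atp5k, the gene of ATP synthase subunit e, and 74 at Uqcr10, a small subunit gene of complex III. At Cox5a and Cycs both peaks lay wholly upstream of the start. At Ndufb2 their centres were upstream and their edges crossed the start, and at Ndufaf4, Sdhb, Uqcr10 and Atp5k they ran across the start into the gene.

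Respiratory chain genes carried COUP-TFII peaks in both sexes, nearly always a single peak at the start of the gene. Of the 98 members, 70 (71.4%) had an XX peak, against 36.9% of all nuclear protein-coding genes. An XY peak was present at 69 members (70.4%), against 35.0% of all genes. A shared peak was present at 66 members (67.3%), against 28.2% of all genes. The median number of peaks per gene was 1 among members and 0 among all genes, in each list. No member had more than 2 peaks in a list, and 4 members (Cox7a2l, Cox8b, Ndufb4 and Ndufs4) had 2 in 1 of the lists. These shares are descriptions of the lists, and no test of the member list against other genes was made.

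**Figure D1:**
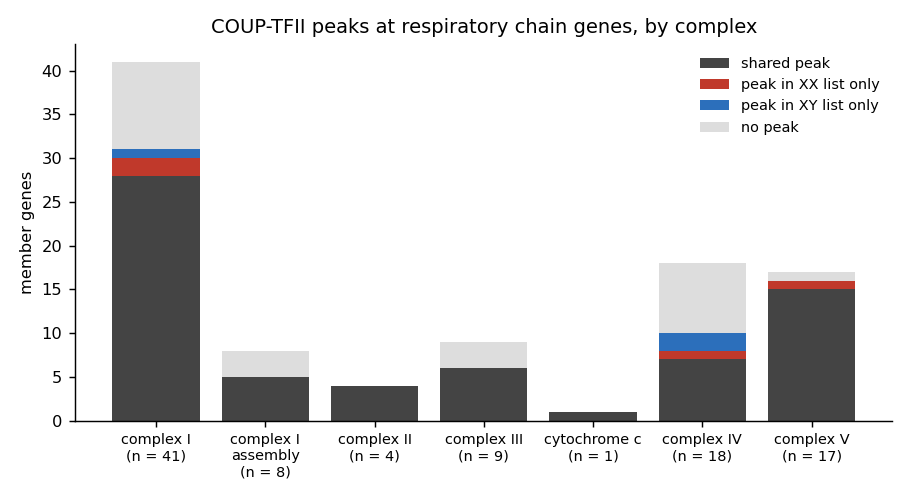
Number of member genes (vertical axis) in each respiratory complex, divided into genes with a shared XX and XY peak, with a peak in the XX list only, with a peak in the XY list only and with no peak. Complexes II and V are nearly filled by genes with a shared peak (4 of 4 and 15 of 17), while complex IV has 7 of 18.

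Members are short genes, with a median length of 7.15 kb against 17.2 kb over all nuclear protein-coding genes. Among genes of 3 to 30 kb, a range set after the counts were seen, 51 of 71 members (71.8%) and 2951 of 10982 protein-coding genes (26.9%) had a shared peak. All annotated protein-coding genes enter the background whether or not mesonephroi express them, and the part of gene activity in these shares was not tested.

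Complex I, the NADH dehydrogenase, had a shared peak at 28 of the 41 Nduf genes counted for it by symbol. Its core subunits hold the flavin and the iron-sulfur clusters that carry the electrons. Of 7 core genes, 5 had a shared peak, among them Ndufv1 and Ndufv2, of the NADH-oxidising end, and Ndufs3 and Ndufs8. At Ndufv1 the XX peak centre lay 70 bp and the XY centre 53 bp downstream of the start, and at Ndufv2 they lay 191 and 188 bp downstream. At Ndufs3 the centres lay 206 bp (XX) and 126 bp (XY) downstream of the start, and at Ndufs8 259 and 229 bp. Ndufs7 had an XY peak alone, centred 10 bp downstream of a start. Ndufs1, the largest core subunit, had no peak given to it. A shared peak centred 159 bp (XX) and 156 bp (XY) from its gene end went to Eef1b2.

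Of the other 34 Nduf genes counted for complex I, which include Ndufa4l2, Ndufb4b and Ndufb4c, 23 had a shared peak. They were Ndufa1, Ndufa2, Ndufa3, Ndufa4, Ndufa5, Ndufa6, Ndufa9, Ndufa11, Ndufa12, Ndufab1, Ndufb2, Ndufb3, Ndufb4, Ndufb5, Ndufb6, Ndufb7, Ndufb8, Ndufb10, Ndufc1, Ndufc2, Ndufs4, Ndufs6 and Ndufv3. For the 22 of these with a RefSeq start, the XX centres of the shared peaks lay between -119 bp (Ndufb2) and 302 bp (Ndufb8) from the start, and the XY centres between -116 bp (Ndufb2) and 276 bp (Ndufc2), negative values being upstream. At Ndufa2 they lay 118 bp (XX) and 94 bp (XY) inside a gene end. Ndufab1 encodes the mitochondrial acyl carrier protein and had its XX and XY centres 225 and 213 bp downstream of the start. Ndufa12 had the same 300 bp in both lists, chr10:94199000-94199299. Ndufa4, whose product has also been assigned to complex IV, had its XX centre 16 bp inside the gene and its XY centre 98 bp outside it. Ndufs4, which encodes a subunit often mutated in human complex I deficiency, had a second, XY-only peak 6.42 kb outside the gene. Ndufb4 had a second, XX-only peak 30.6 kb outside the gene, the farthest peak given to any member. With a limit of 500 kb no further peak was given to a member.

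Ndufa10 and Ndufa13 had a peak in the XX list only. The XX peak at Ndufa10 was centred 37 bp downstream of the start. The XX peak at Ndufa13, also known as Grim19, was centred 382 bp downstream. Ndufa13 gained a shared peak when an XY peak up to 1 kb away sufficed for sharing. It also gained one when peaks went to the nearest gene end, or to every protein-coding gene within 1 kb.

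Assembly factors of complex I do not stay in the finished enzyme. Of 8 Ndufaf genes, 5 had a shared peak (Ndufaf1, Ndufaf2, Ndufaf4, Ndufaf6 and Ndufaf8). At Ndufaf4 the XX and XY centres lay 52 and 68 bp downstream of the start, at Ndufaf1 29 and 135 bp, at Ndufaf2 177 and 214 bp and at Ndufaf8 244 and 184 bp. At Ndufaf6 they lay 35 bp (XX) and 84 bp (XY) inside a gene end. Ndufaf3 and Ndufaf5 had no peak. Ndufaf7 had a shared peak within 189 bp (XX) and 123 bp (XY) of its end, which was given to Cebpz.

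All 4 genes of complex II, the succinate dehydrogenase of the tricarboxylic acid cycle, had a shared peak. At Sdha, the flavoprotein gene, the XX centre lay 158 bp and the XY centre 139 bp downstream of the start. At Sdhb these distances were 44 and 27 bp, and at Sdhd, a membrane anchor gene, 168 and 115 bp. At Sdhc, the gene of the other anchor, the centres lay 164 bp (XX) and 194 bp (XY) inside a gene end.

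Complex III, the cytochrome bc1 complex, had a shared peak at 6 of 9 genes. These included Cyc1, the gene of cytochrome c1, Uqcrfs1, the gene of the Rieske iron-sulfur protein, and both core protein genes, Uqcrc1 and Uqcrc2. At Uqcrfs1 the XX and XY centres lay 68 and 136 bp downstream of the start, at Uqcrc1 189 and 173 bp, and at Uqcr10 125 and 117 bp. Measured inward from a gene end, the centres lay at 515 bp (XX) and 517 bp (XY) in Cyc1, 194 and 128 bp in Uqcrc2, and 206 and 213 bp in Uqcrq. Uqcr11 and Uqcrb had no peak, and the shared peak 356 bp (XX) and 252 bp (XY) from the end of Uqcrh went to Lrrc41. Cycs had a shared peak centred at -274 bp (XX) and -264 bp (XY) from its start. With genes of every kind competing, the peak at Cycs went to a gene that is not protein-coding, and Cycs then had none.

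Complex IV, cytochrome c oxidase, had a shared peak at 7 of 18 genes (38.9%). This was the lowest share among the complexes, against 28.2% of all nuclear protein-coding genes. The 18 genes include the Cox isoforms with restricted expression listed in the next paragraph. The 7 with a shared peak were Cox5a, Cox5b, Cox6c, Cox7a2l, Cox7c, Cox8a and Cox8b. Cox7a2l, whose product joins complexes III and IV into supercomplexes, had its XX and XY centres 278 and 371 bp downstream of the start, and a further XX-only peak 5.81 kb inside the gene from its nearer end. Cox5b had its centres at -188 bp (XX) and -130 bp (XY), and Cox5a at -160 and -163 bp from a start that lies within the annotated gene. At Cox7c the centres lay 319 and 343 bp downstream, at Cox8a 133 and 160 bp, and at Cox6c 351 and 385 bp inside a gene end. Cox4i1, the gene of the widely expressed form of subunit IV, had an XY-only peak 375 bp inside its gene end. Cox6b1 had an XY-only peak 224 bp downstream of its start. Cox6a1, Cox7a2 and Cox7b had no peak.

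Complex IV holds most of the isoforms with restricted expression. The 8 such genes listed were Cox4i2 (lung and hypoxia), Cox6a2, Cox7a1 and Cox8b (heart and skeletal muscle), Cox6b2, Cox7b2 and Cox8c (testis) and Ndufa4l2 (hypoxia). Cox4i2, Cox6a2, Cox7a1, Cox7b2, Cox8c and Ndufa4l2 had no peak in either list. Cox6b2 had an XX-only peak 219 bp downstream of its start, which also lay within 1 kb of an end of Fam71e2. Cox8b had a shared peak 8.34 kb (XX) and 8.38 kb (XY) outside the gene and an XX-only peak 3.02 kb outside it. Cox8b lost its shared peak when genes of every kind competed and when a peak had to lie inside a gene or within 1 kb of it. By count, 1 of 8 restricted isoforms (12.5%) and 65 of the other 90 members (72.2%) had a shared peak. The share over all nuclear protein-coding genes was 28.2%. The median length was 1.68 kb for the restricted isoforms and 7.23 kb for the other members. No RefSeq start was matched for Cox4i2, Cox6a2, Cox8c and Ndufa4l2. The difference in shares was not tested, nor was the part of gene length in it.

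Complex V, the ATP synthase, had a shared peak at 15 of 17 genes (88.2%). Its catalytic F1 head is built from the products of Atp5a1, Atp5b, Atp5c1, Atp5d and Atp5e. Atp5b, which encodes the catalytic beta subunit, had its XX centre 64 bp and its XY centre 91 bp downstream of the start. Atp5a1, the alpha subunit gene, had its centres 309 bp (XX) and 286 bp (XY) inside a gene end. Atp5c1 had its centres 194 and 104 bp downstream of a start and Atp5e 260 and 203 bp, and Atp5d, the delta subunit gene, had no peak.

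The 3 genes of the proton-carrying subunit c encode the same mature protein, and all had a shared peak. At Atp5g2 the XX and XY centres lay 88 and 98 bp downstream of the start. At Atp5g3 they lay 603 and 380 bp downstream, and at Atp5g1 at -348 and -385 bp, upstream. Stalk and membrane subunit genes with a shared peak were Atp5o, Atp5pb, Atp5h, Atp5j, Atp5j2, Atp5k, Atp5l and Atp5mpl. Leaving out Atp5mpl, which has no start in the table and had its centres 75 bp (XX) and 88 bp (XY) inside a gene end, the XX centres lay between 74 bp (Atp5k) and 292 bp (Atp5j2) downstream and the XY centres between 68 bp (Atp5k) and 264 bp (Atp5l). Atp5md, the gene of a small membrane subunit, had an XX-only peak 305 bp downstream of its start.

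**Figure D2:**
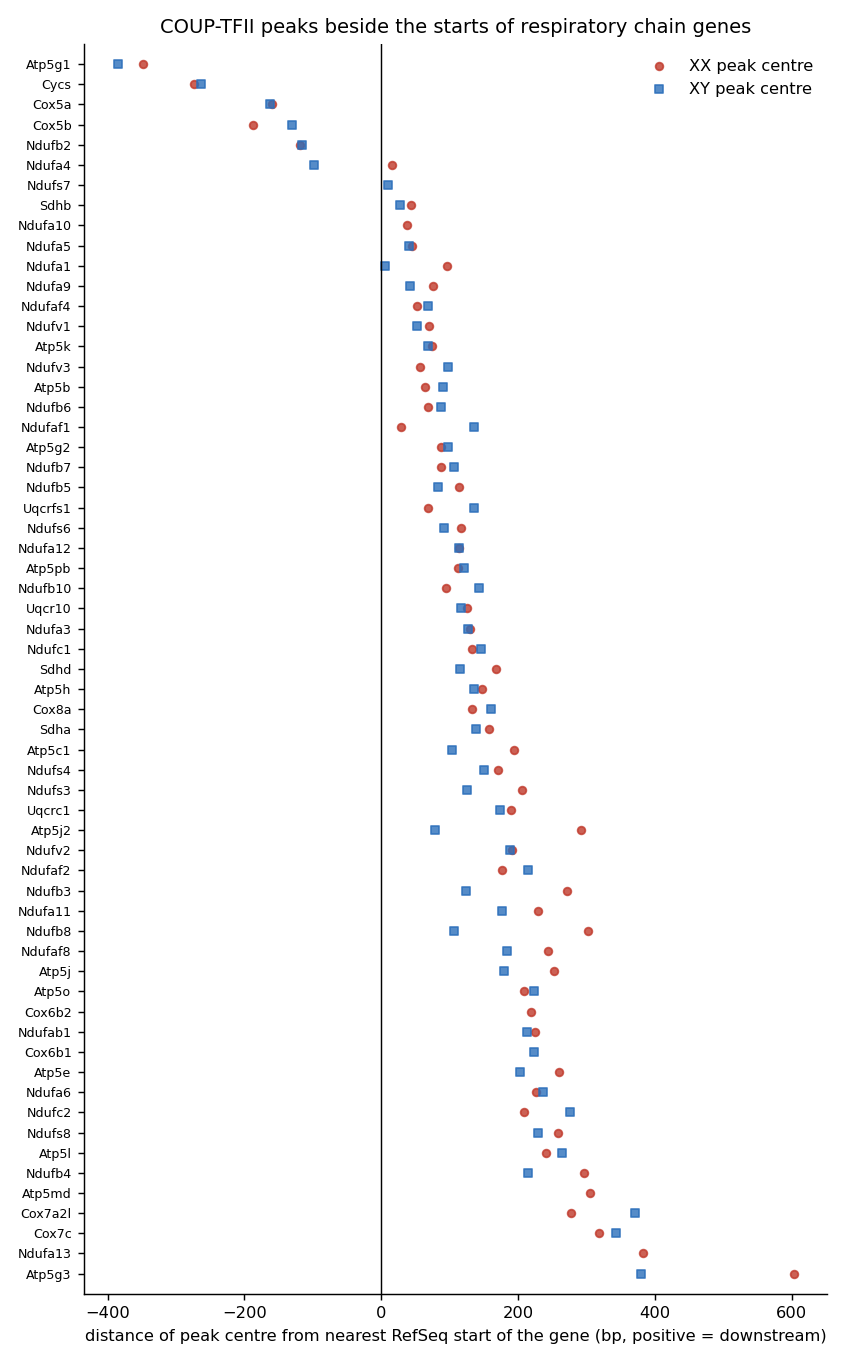
Distance in bp (horizontal axis, positive values downstream) of each XX peak centre (circles) and XY peak centre (squares) from the nearest RefSeq start, for the 61 members (rows) with a start in the promoter table and a peak centre within 1 kb of it. Most centres lie between the start and 300 bp downstream, and those of Atp5g1, Cycs, Cox5a, Cox5b and Ndufb2 lie upstream in both lists.

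The position of these peaks was the same in outline from gene to gene. RefSeq starts were matched for 79 of the 98 members. Within 1 kb of a start lay 55 shared peaks of members, and the median XX centre was 132 bp downstream, with the middle 50% of peaks between 69 and 226 bp. In XY coordinates the median was 124 bp, and the middle 50% lay between 81 and 182 bp. At other protein-coding genes the median was similar, 96 bp downstream in XX and 98 bp in XY, but the middle 50% ran from -93 to 236 bp in XX and from -84 to 230 bp in XY. Centres fell between the start and 300 bp downstream for 85.5% (XX) and 83.6% (XY) of the members' shared peaks, against 48.2% (XX) and 49.5% (XY) of those at other genes.

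**Figure D3:**
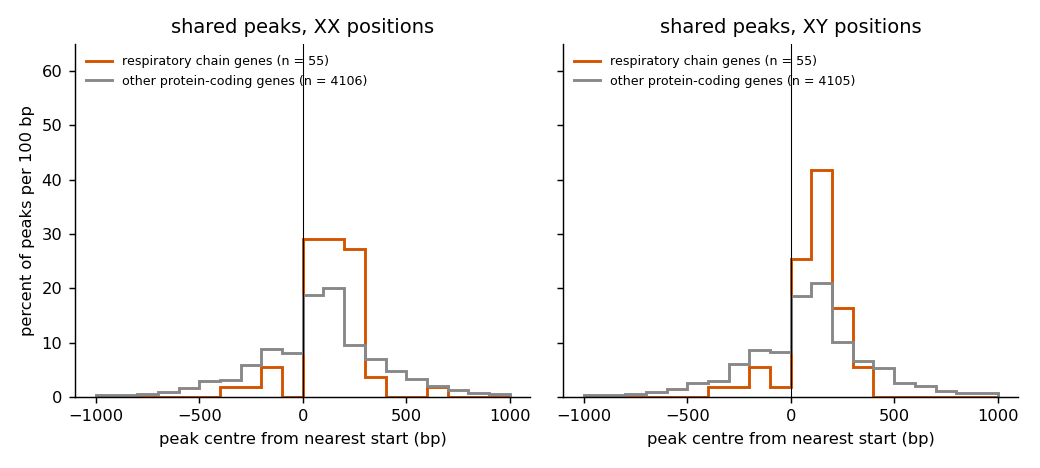
Percent of shared peaks (vertical axis) in each 100 bp step of distance from the nearest RefSeq start (horizontal axis), for respiratory chain genes and other protein-coding genes, with XX positions on the left and XY positions on the right. The members' curve is narrower, with 85.5% (XX) and 83.6% (XY) of peaks in the first 300 bp downstream.

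The promoter windows gave the same picture from the starts themselves. Of 79 members with a window, 43 (54.4%) had a window overlapped by an XX peak, against 21.7% of 17492 protein-coding genes with a window. An XY peak overlapped a window of 47 members (59.5%), against 21.8% of genes. Both did so at 39 members (49.4%), against 16.8% of genes. Because most peaks were centred more than 50 bp downstream of the start, much of their sequence lay beyond the windows.

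Peaks at members were mostly common to both sexes. Of the 73 XX peaks given to members, 66 (90.4%, exact 95% interval 81.2 to 96.1) were shared, against 68.4% (67.5 to 69.3) of XX peaks given to any protein-coding gene. Of the 70 XY peaks, 66 (94.3%, 86.0 to 98.4) were shared, against 76.2% (75.3 to 77.0). The intervals (Clopper-Pearson) cover counting error only. Peaks near gene ends are shared more often in general. Among peaks within 1 kb of an end of their gene, 93.8% (85.0 to 98.3) of the members' XX peaks and 78.7% (77.6 to 79.7) of all XX peaks were shared, and 95.3% (86.9 to 99.0) of the members' XY peaks and 78.2% (77.1 to 79.3) of all XY peaks. Of the members' peaks, 89.0% in XX and 91.4% in XY lay within 1 kb of an end, against 55.7% and 62.5% of peaks at all protein-coding genes. The centres of the members' shared peaks differed by a median of 26 bp between the lists and by at most 223 bp, against a median of 33 bp over all 7483 shared peaks.

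In all, 7 XX peaks and 4 XY peaks of members were in 1 list only. The XX-only peaks were those at Atp5md, Cox6b2, Ndufa10 and Ndufa13 near gene ends, and the distant ones of Cox7a2l, Cox8b and Ndufb4. The XY-only peaks were those at Cox4i1, Cox6b1 and Ndufs7 near gene ends, and the distant one of Ndufs4. Signal at these positions was not analysed here, so whether a peak missing from a list was absent or under the authors' threshold was not tested. On the X chromosome, Ndufa1 had a shared peak and Cox7b none. Ndufb11 had no peak given to it, but XX-only peaks were centred 150 and 586 bp from its end and went to Rbm10.

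Some of the members' peaks lay near an end of a neighbouring gene as well. Of the 61 shared XX peaks within 1 kb of a member's end, 22 (36.1%) also lay within 1 kb of an end of another protein-coding gene, against 17.8% of 4581 such peaks at all protein-coding genes. Several of the partners are themselves mitochondrial. Mrpl47 and Mrpl36, of the mitochondrial ribosome, stand beside Ndufb5 and Ndufs6, and Timm8b, of the protein import machinery, stands beside Sdhd. The shared peak of Atp5j, 1.13 kb (XX) inside its own gene end, lay within 1 kb of an end of Gabpa, which encodes the DNA-binding part of NRF-2, a regulator of respiratory chain genes. At such pairs a peak cannot be ascribed to either gene.

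The nearest-gene rule took peaks away from some members. Of the 25 members with no peak, 7 (Ndufa7, Ndufaf7, Ndufb1, Ndufb9, Ndufb11, Ndufs1 and Uqcrh) had a peak centre within 1 kb of an end that went to a neighbour, and at Ndufaf7, Ndufb1, Ndufs1 and Uqcrh that peak was shared. The other 18 had none that close: Atp5d, Cox4i2, Cox6a1, Cox6a2, Cox7a1, Cox7a2, Cox7b, Cox7b2, Cox8c, Ndufa4l2, Ndufa8, Ndufaf3, Ndufaf5, Ndufb4b, Ndufb4c, Ndufs5, Uqcr11 and Uqcrb. Ndufa13, with an XX-only peak given to it, also had an XY peak centre within 1 kb of an end that went to another gene. With a peak counted for every gene that it lay in or within 1 kb of, 70 of 98 members (71.4%) had a shared peak, against 29.3% of all genes.

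Sequence features of the promoter windows were compared next. The 59 windows of the 56 members with a shared peak had a median GC content of 59.3% and 20 CpG dinucleotides. The 25 windows of 23 members without one had a median of 56.7% and 19 CpG. Over all 21263 windows of protein-coding genes the medians were 56.3% and 13, and over the 3200 windows overlapped by both lists 63.7% and 25. Over the 6411 windows of protein-coding genes with a shared peak they were 61.7% and 21. GC and CpG content moved with the presence of a peak across all genes, and their part in the counts above was not tested.

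The letters of 8 motifs were searched on both strands of each window, and peak sequence beyond the windows was not searched. A shared peak given to a gene need not overlap its window. AGGTCA, the motif of nuclear receptors, was found in 14 of 59 windows (23.7%) of members with a shared peak, in 4 of 25 (16.0%) of members without one and in 14.7% of all windows of protein-coding genes. Among the 6411 windows of protein-coding genes with a shared peak it was in 13.5%. Among the windows of any protein-coding gene overlapped by both lists it was in 16.5%. Its shorter form GGTCA, which every AGGTCA contains, was found in 45.8%, 60.0% and 39.4%. It was in 39.7% of windows of protein-coding genes with a shared peak and in 47.3% of the windows overlapped by both lists. The direct repeat of AGGTCA with 1 base between, known as DR1, was in 0 of 84 member windows, in 0.0470% of all windows and in 0.0938% of those overlapped by both lists. In the promoters printed above, AGGTCA lay inside both peaks at Ndufb2 (position -180), Sdhb (-86), Ndufaf4 (23) and Atp5k (25), counted from 1 at the start base. At Cox5a, GGTCA lay inside both peaks at positions -151 and -142, and the Uqcr10 and Cycs windows held neither form.

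Motifs of other regulators of respiratory genes were also present. GCGCATGC, from the NRF1 motif, was in 15.3% of windows of members with a shared peak and 16.0% of those without, against 3.52% of all windows. It was in 5.09% of windows of protein-coding genes with a shared peak and in 6.59% of windows overlapped by both lists. CCGGAAG, bound by ETS factors such as GABPA, was in 23.7% and 20.0%, against 11.6% of all windows. It was in 17.1% of windows of protein-coding genes with a shared peak and in 27.5% of windows overlapped by both lists. AAGATGGC, bound by YY1, was in 10 of 59 windows (16.9%) and 1 of 25, against 3.05% of all windows. It was in 4.35% of windows of protein-coding genes with a shared peak and in 6.81% of windows overlapped by both lists. These letters include ATG and can coincide with a translation start. GGGCGG, of SP factors, was in 45.8% and 40.0%, against 46.2% of all windows. It was in 63.6% of windows of protein-coding genes with a shared peak and in 71.0% of windows overlapped by both lists. CCAAT, of NFY, was in 42.4% and 44.0%, against 38.2% of all windows. It was in 37.6% of windows of protein-coding genes with a shared peak and in 39.9% of windows overlapped by both lists. In the Sdhb window, AGGTCA, GCGCATGC (minus strand), CCGGAAG and CCAAT (minus strand) all lay inside both peaks. In the Atp5k window GCGCATGC was matched on both strands in overlapping positions inside both peaks. A match of letters does not show that a factor was bound.

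**Figure D4:**
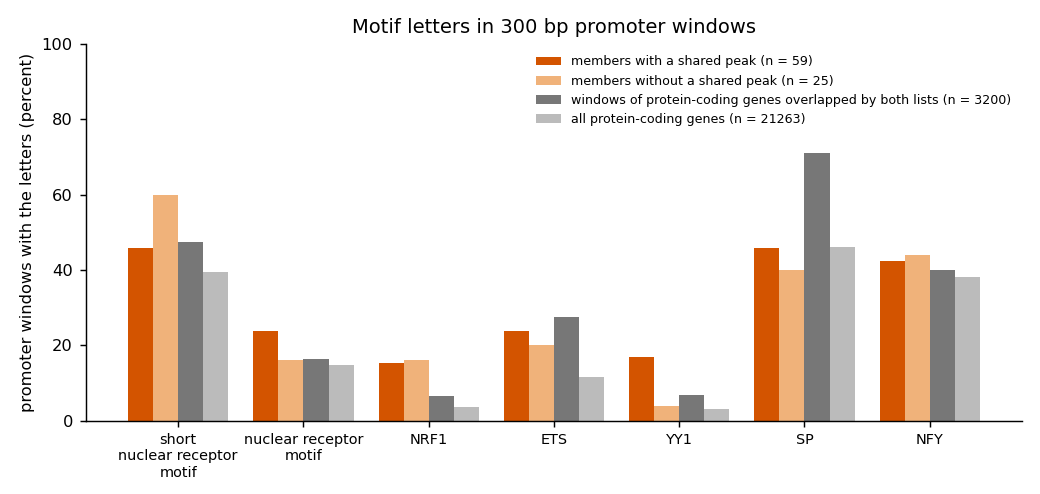
Percent of 300 bp promoter windows (vertical axis) that hold the letters of each motif but DR1 (horizontal axis), for members with a shared peak, members without one, windows of any protein-coding gene overlapped by both lists and all windows of protein-coding genes. NRF1 letters are in 15.3% and 16.0% of the members' windows against 3.52% of all windows, and SP letters in 71.0% of the windows overlapped by both lists.

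Genes that act with the respiratory chain had shared peaks as well. Over all nuclear protein-coding genes, 28.2% had a shared peak, 36.9% an XX peak and 35.0% an XY peak. Of 35 further assembly factor genes of complexes I to V, 20 (57.1%) had a shared peak, 25 (71.4%) an XX peak and 22 (62.9%) an XY peak. Atpaf1, for complex V, and Coa5, Coa7 and Cox10, for complex IV, each had 1 shared peak. Of 22 genes of nuclear regulators and of mitochondrial DNA upkeep, 11 had a shared peak. Gabpb1, which encodes the partner of GABPA, and Yy1 had 2 shared peaks each, and Gabpa and Nrf1 had 1. Of 16 genes of the tricarboxylic acid cycle and the pyruvate dehydrogenase complex, 12 had a shared peak, with 2 at Suclg2 and 1 each at Dlat, Dlst and Fh1. All 16 had an XX peak and 14 had an XY peak. These lists hold longer genes than the members, whose median length was 7.15 kb. The medians were 12.6 kb for assembly factors, 29.1 kb for regulators and 23.8 kb for the tricarboxylic acid cycle list. The part of gene length in these counts was not tested.

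Other housekeeping groups of genes, chosen by symbol and counted in the same way, also lay above the share for all genes. A shared peak was present at 42 of 78 mitochondrial ribosomal protein genes (53.8%), 44 of 84 cytosolic ribosomal protein genes (52.4%) and 18 of 51 proteasome genes (35.3%). The respiratory chain share of 67.3% lay above each of these 3 shares and below that of the tricarboxylic acid cycle list, and these differences were not tested.

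**Figure D5:**
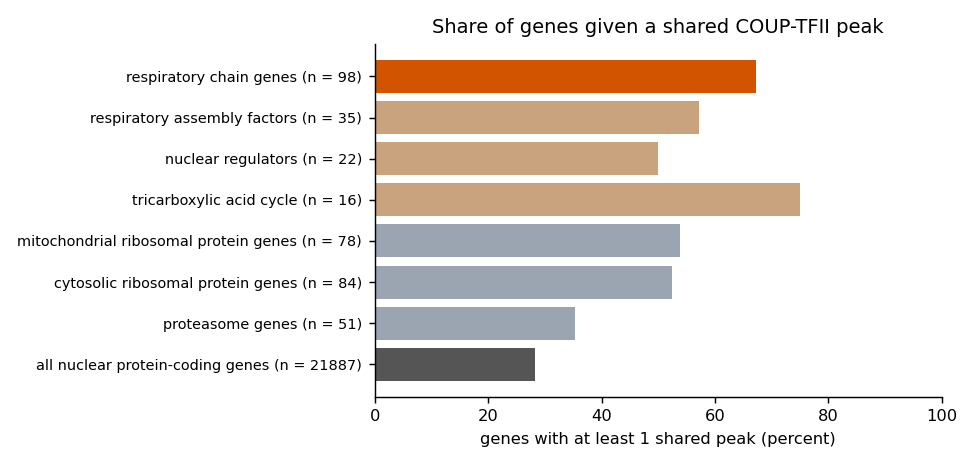
Percent of genes (horizontal axis) given at least 1 shared peak, for the respiratory chain genes, related mitochondrial lists, other housekeeping groups and all nuclear protein-coding genes (rows, with the number of genes). The respiratory chain genes stand at 67.3% and all nuclear protein-coding genes at 28.2%.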

How the data were processed

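COUP-TFII ChIP-seq peak lists, 1 per sex, were used as the authors deposited them: 3 columns of chromosome, start and end, in mm10. Per the submitters' processing notes, the tools included HOMER 4.10.3, Bowtie 1.2, bedtools 2.24.0, Picard and cutadapt, with no roles stated. For the peak threshold and the handling of replicates, details are not given in the sources used. Input libraries and coverage tracks were not used here. Samples were grouped by title.

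Genes came from the RefSeq table of GRCm38.p6, the assembly of mm10, and starts, strands and promoter sequences from RefSeq promoter windows of the same build, matched by gene ID. Positions are counted from 1. A peak went to the protein-coding gene whose body was closest to its centre, up to 100 kb (inside counts as 0, ties to the nearer gene end), which gave a gene to 93.5% of XX and 95.3% of XY peaks. Distances are rounded down to whole bases. Peaks were placed and counted with Python 3.11.15, pandas 2.3.3 and numpy 2.4.6, intervals came from scipy 1.17.1, and the number of shared peaks was checked against bedtools 2.31.1. The assignment was tested on planted positions.

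No test was made on the lists, which hold no values per library. The members, gene lists and motifs were chosen with earlier results of these data known. Members with a peak are named with their place or their group's range, except for 1 item that is not reported here, and further lists name up to 4 genes with most shared peaks, then by symbol. The core complex I subunits and the length range were set after the counts were seen. Alternatives were other distance limits, distance to gene ends, competition with genes of every kind, a peak counted for several genes, other definitions of a shared peak and other widths of a gene end.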

Additional observations from a re-analysis of the deposited data

How the results depend on the processing

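Across 8 alternatives in which peaks were given to genes or counted as shared in another way, between 60 and 70 of the 98 members had a shared peak, against 66 as reported. The lowest count came with centres required within 100 bp of each other, which removed Atp5g3, Atp5j2, Ndufa4, Ndufaf1, Ndufb3 and Ndufb8. By the nearest gene end 63 members had one. Members with an XX or XY peak, all peaks at members and peaks near their gene ends stayed within 1.5 times their reported counts in the alternatives run for each. No paired analysis was possible because the peak lists, the only files analysed here, hold 1 list per sex over its 2 replicates and no values per library, and no replicate was left out for the same reason. A stricter peak threshold could not be applied to lists without scores.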
